A study of Homo sapiens with 4 samples.

Results

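The genes described here are 10 members of the Notch pathway: the ligand genes JAG1, JAG2 and DLL1, the receptor genes NOTCH1, NOTCH2 and NOTCH3, the DNA-binding factor gene RBPJ, and the target genes HES1, HES4 and HEY1. They were chosen by gene symbol, with earlier results of these data known, and all 10 were found among the 26255 symbols measured. JAG1 was already known to be higher with the microRNA in these libraries when the genes were chosen, so its change is a description with no test. The question was whether the receptor and target genes changed in the same direction as the ligand gene.

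The cells were the human epithelial lines PSN-1 and MIA PaCa-2, both derived from pancreatic tumours. Cultures received either mimics of miR-4800-3p, a small RNA that lowers messenger RNAs it pairs with, or a scramble oligonucleotide as negative control, and messenger RNA was then sequenced. There were 4 groups, each with 1 library: PSN-1 with the mimic, PSN-1 with the scramble, MIA PaCa-2 with the mimic and MIA PaCa-2 with the scramble. No value within a line therefore has a replicate, and the only repeat of the treatment is the other line.

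Notch signalling works by contact between cells. A ligand on one cell (JAG or DLL family) binds a Notch receptor on its neighbour, the receptor is cut first by an ADAM protease and then by gamma-secretase, and the freed intracellular part enters the nucleus. There it joins RBPJ and a Mastermind co-activator and turns on genes of the HES and HEY families, which encode transcriptional repressors. In the pancreas the pathway is known for holding progenitor cells undifferentiated during development and for its reactivation in pancreatic tumours.

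The mature microRNA is shown because its seed decides which messenger RNAs it can pair with. Its RefSeq sequence (GRCh38.p14, chr4:2250091-2250109, minus strand) is printed with the seed, bases 2 to 8, in capitals.
hsa-miR-4800-3p: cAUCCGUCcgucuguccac
Matches counted in the 3' UTR read GACGGAT (a 7-mer), GACGGATA (the 8-mer) or ACGGATA (the 7-mer that ends in A). The last of these pairs with the seed except for its final base, base 8. Taking for every gene its longest 3' UTR in GENCODE release 29 (GRCh38), none of the 10 Notch genes had such a match. Of all 18178 genes searched, 395 had one (2.17%). The mimic itself could not be followed in these libraries, which select polyadenylated RNA, and the precursor gene MIR4800 was listed at 0 FPKM in all 4.

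Levels are FPKM, fragments per kilobase of transcript scaled to the size of the library, which allow genes to be compared per length. By an estimate from the smallest values, 1 FPKM stood for 15.7 fragments per kb of transcript in the PSN-1 mimic library, 12.8 in the PSN-1 scramble library, 14.2 in the MIA PaCa-2 mimic library and 12.8 in the MIA PaCa-2 scramble library. Intervals beside a ratio of mimic to scramble FPKM are 95% exact binomial (Clopper-Pearson) intervals from these estimated fragments and cover counting error only, without the error between cultures. A log2 change below is log2 of (mimic FPKM + 1) over (scramble FPKM + 1), which understates the change of low genes. The keratin genes KRT8 and KRT18, markers of epithelium, lay between 495 and 923 FPKM in all 4 libraries. The epithelial adhesion gene CDH1 reached at most 1.51 FPKM. EPCAM was at 0.139 and 0.104 FPKM in MIA PaCa-2, against 28.4 and 24.1 FPKM in PSN-1. Of the mesenchymal markers, VIM was at 1235 (mimic) and 1144 FPKM (scramble) in PSN-1. In MIA PaCa-2 it was at 4401 and 4111 FPKM. ZEB1 lay between 19.8 and 30.5 FPKM in all 4 libraries and CDH2 at most at 0.0514. Of 5 fibroblast and stellate markers, COL1A2 was at 59.9 and 76.8 FPKM and RGS5 at 42.0 and 35.9 in MIA PaCa-2. In PSN-1, LUM was at 14.3 and 19.6 FPKM and COL1A1 at 10.2 and 12.6. The list's other values were at most 2.77 FPKM. The part of these markers was not tested. Of the 4 leukocyte markers, CD3E and MS4A1 were at 0 in all 4 libraries and PTPRC was at most 0.433 FPKM. The macrophage marker CD68 was at 38.7 FPKM with the mimic and 35.3 FPKM with the scramble in PSN-1, and at 34.6 and 20.1 FPKM in MIA PaCa-2 (ratio 1.72, interval 1.53 to 1.94); its part in the results was not tested.

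With the mimic, JAG1, RBPJ and HES4 were higher past 1.5-fold in both lines, HES1 was higher past 1.5-fold in MIA PaCa-2 and by less in PSN-1, and none of NOTCH1, NOTCH2 and NOTCH3 was higher past 1.5-fold in either line. JAG2, DLL1, NOTCH1 and NOTCH3 were lower in both lines by less than 1.5-fold. HEY1 was higher in PSN-1 and at the limit of detection in MIA PaCa-2, and HES4 was low in every library. Most of the further target genes of at least 1 FPKM, outside the members, were lower by any amount in each line. They are given below beside the shares of all genes. Each line is a single pair of libraries, so these are differences between libraries with no test.

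**Figure D1:**
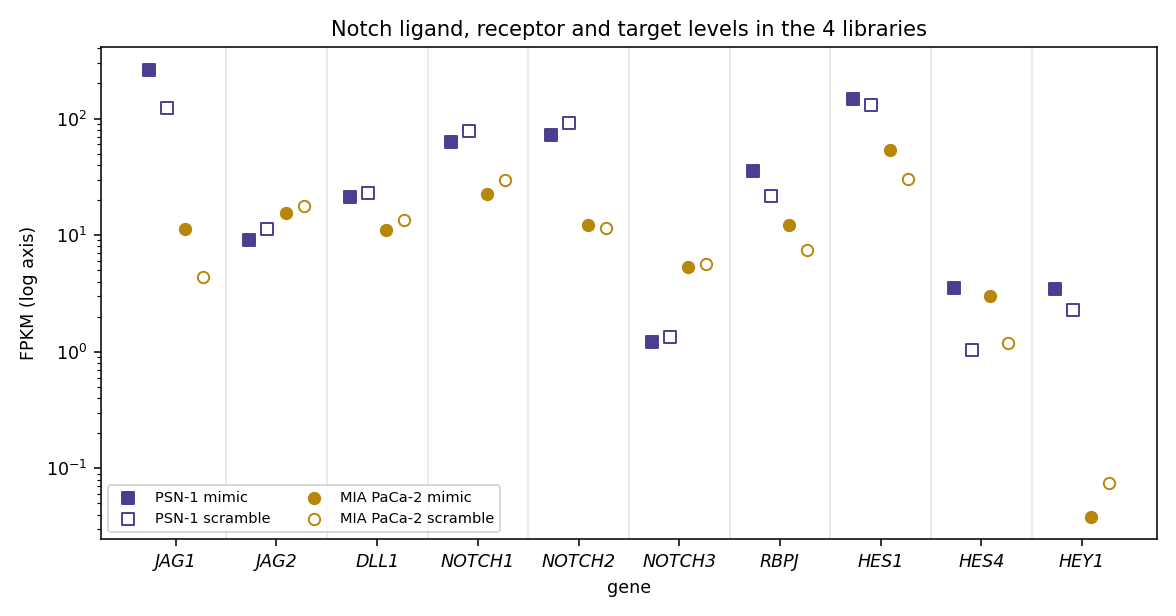
FPKM on a log axis for the 10 Notch genes; squares are PSN-1 and circles MIA PaCa-2, filled for the mimic and open for the scramble, 1 library each. JAG1 is at 262 and 122 FPKM in PSN-1 and at 11.3 and 4.35 FPKM in MIA PaCa-2, while HEY1 is at 0.0383 and 0.0752 FPKM in MIA PaCa-2.

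JAG1 (ENSG00000101384, chr20:10637684-10673999, minus strand, GRCh38) encodes Jagged 1, a transmembrane ligand of the Notch receptors. In PSN-1 it was at 262 FPKM with the mimic and 122 FPKM with the scramble, a ratio of 2.14 (counting interval 2.09 to 2.2). In MIA PaCa-2 it was at 11.3 FPKM with the mimic and 4.35 FPKM with the scramble, a ratio of 2.59 (2.28 to 2.95). The log2 changes of 1.09 and 1.20 placed it 85th from the highest of 12233 genes in PSN-1 and 80th of 11484 in MIA PaCa-2. The counting intervals of the lines do not overlap, and the difference between the lines was not tested. The level of JAG1 in PSN-1 was far above that in MIA PaCa-2 with either oligonucleotide. In RNA of whole cultures, more cells with a transcript and more transcript per cell cannot be told apart.

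The other ligand genes were lower with the mimic, JAG2 beyond counting error in both lines and DLL1 in MIA PaCa-2. JAG2, which encodes the related ligand Jagged 2, was at 9.0 FPKM with the mimic and 11.2 FPKM with the scramble in PSN-1, and at 15.5 and 17.9 FPKM in MIA PaCa-2. Its ratios were 0.802 (0.726 to 0.885) and 0.867 (0.802 to 0.939), below 1 in both lines. DLL1, a ligand of the Delta-like family, was at 21.4 FPKM with the mimic and 22.9 FPKM with the scramble in PSN-1 (ratio 0.938, interval 0.856 to 1.03, which includes 1). In MIA PaCa-2 it was at 11 FPKM with the mimic and 13.5 FPKM with the scramble (ratio 0.818, interval 0.720 to 0.93).

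The make-up of the ligand transcripts differed with the mimic. Summed over the 5 canonical ligand genes (JAG1, JAG2, DLL1, DLL3 and DLL4), ligand FPKM in PSN-1 came to 295 with the mimic and 158 with the scramble. JAG1 was 89.0% of that sum with the mimic and 77.2% with the scramble. In MIA PaCa-2 the sums were nearly equal, at 39.7 FPKM with the mimic and 39.0 FPKM with the scramble, and JAG1 was 28.4% of it with the mimic and 11.2% with the scramble. JAG2 had the largest share in both MIA PaCa-2 libraries, with 39.0% of ligand FPKM in the mimic library and 45.8% in the scramble library. DLL4, a ligand best known from blood vessels, was at 1.51 FPKM with the mimic and 2.83 FPKM with the scramble in MIA PaCa-2 and at 1.54 and 1.42 FPKM in PSN-1. DLL3 was at or below 0.600 FPKM in all 4 libraries.

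**Figure D2:**
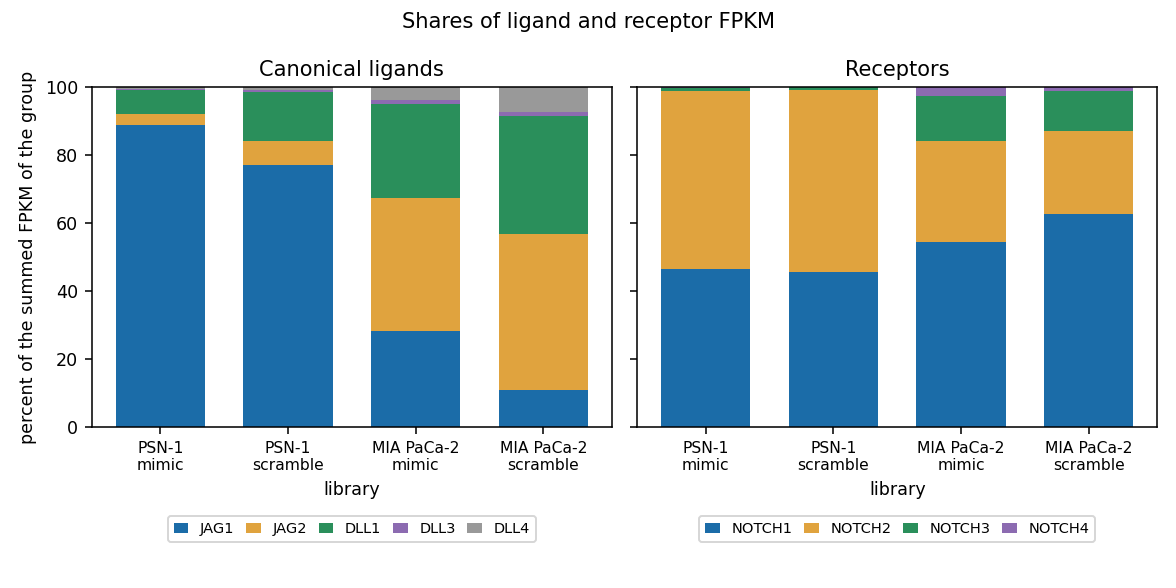
Share in percent of the summed FPKM of the 5 canonical ligand genes (left) and the 4 receptor genes (right) in each library, as stacked bars. JAG1 takes 89.0% of ligand FPKM in the PSN-1 mimic library and 77.2% in the PSN-1 scramble library, 28.4% in the MIA PaCa-2 mimic library and 11.2% in the MIA PaCa-2 scramble library, while NOTCH1 and NOTCH2 together form most of the receptor FPKM in every library.

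NOTCH1 was lower with the mimic in both lines, NOTCH2 was lower in PSN-1 alone beyond counting error, and the intervals of NOTCH3 included 1. NOTCH1 was at 63.4 FPKM with the mimic and 78.7 FPKM with the scramble in PSN-1, and at 22.4 and 29.8 FPKM in MIA PaCa-2. Its ratios of 0.805 (0.782 to 0.829) and 0.753 (0.717 to 0.792) were below 1 in both lines, opposite to JAG1. NOTCH2 was at 71.6 FPKM with the mimic and 92.2 FPKM with the scramble in PSN-1 (ratio 0.776, interval 0.758 to 0.796). In MIA PaCa-2 NOTCH2 was at 12.1 FPKM with the mimic and 11.5 FPKM with the scramble (ratio 1.06, interval 0.991 to 1.13, which includes 1). NOTCH2NL, a partial copy of NOTCH2 that can share its reads, was at 9.57 FPKM with the mimic and 9.23 FPKM with the scramble in PSN-1 and at 2.32 and 3.57 FPKM in MIA PaCa-2, so the NOTCH2 values are uncertain. NOTCH3 was low in PSN-1, at 1.21 FPKM with the mimic and 1.33 FPKM with the scramble, and was at 5.35 and 5.64 FPKM in MIA PaCa-2. Its intervals included 1 in both lines (0.724 to 1.15 in PSN-1 and 0.847 to 1.06 in MIA PaCa-2). Summed over the 4 receptor genes, FPKM came to 136 with the mimic and 172 with the scramble in PSN-1, and to 41.0 and 47.4 in MIA PaCa-2. NOTCH4, a receptor gene outside the 10 and below the filter in both lines, went the other way in MIA PaCa-2, at 1.09 FPKM with the mimic and 0.505 FPKM with the scramble (ratio 2.17, interval 1.5 to 3.18). In PSN-1 it was at 0.124 and 0.0845 FPKM.

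RBPJ (chr4:26163455-26435131, plus strand, GRCh38) encodes the factor that carries the Notch signal to DNA and that holds the same genes down with co-repressors when no signal comes. It was at 35.3 FPKM with the mimic and 21.9 FPKM with the scramble in PSN-1, and at 12.3 and 7.49 FPKM in MIA PaCa-2. The ratios were 1.62 (1.52 to 1.72) and 1.64 (1.47 to 1.82), and their intervals overlap.

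HES1 (chr3:194136145-194138732, plus strand) and HES4 (chr1:998962-1000172, minus strand, both GRCh38) encode basic helix-loop-helix repressors, and HES1 is the target gene most often used as a readout of Notch signalling. The promoter windows of HES1 and HES4 are shown because both genes were higher with the mimic in both lines and because RBPJ is known to bind such windows at the letters TGGGAA. Each runs from 250 bases before to 50 bases after the gene's start, 5' to 3' on the gene's own strand, from RefSeq (GRCh38.p14), with every TGGGAA in capitals.
HES1 promoter (chr3:194135898-194136197, plus strand): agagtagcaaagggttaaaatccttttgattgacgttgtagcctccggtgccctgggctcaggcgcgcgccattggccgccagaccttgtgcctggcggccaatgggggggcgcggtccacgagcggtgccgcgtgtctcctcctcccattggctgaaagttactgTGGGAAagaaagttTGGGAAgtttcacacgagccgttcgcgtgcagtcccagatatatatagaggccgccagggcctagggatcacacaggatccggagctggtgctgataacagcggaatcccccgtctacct
HES4 promoter (chr1:1000048-1000347, minus strand): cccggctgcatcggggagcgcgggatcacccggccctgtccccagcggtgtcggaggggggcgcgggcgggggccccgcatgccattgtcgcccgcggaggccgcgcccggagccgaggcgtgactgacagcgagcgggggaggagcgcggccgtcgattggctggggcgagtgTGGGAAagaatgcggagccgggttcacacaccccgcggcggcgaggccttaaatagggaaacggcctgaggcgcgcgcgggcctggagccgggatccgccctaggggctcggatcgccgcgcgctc
The HES1 window holds 2 matches, which begin 84 and 70 bases before the start, and the HES4 window holds 1, which begins 76 bases before it. Searched on both strands, at least 1 match was present in 24.0% of all 35116 promoter windows of that length and at least 2 in 3.80%. The windows of JAG1, JAG2, NOTCH1, NOTCH2 and NOTCH3 held none, and of the 5 windows of RBPJ, 1 held 2 matches. DLL1 and HEY1 were not searched. The windows printed were chosen by the rise of their genes, and those of target genes outside the members were not looked at singly. A match describes letters only, and binding was not measured. The part of RBPJ in the changes of HES1 and HES4 was not tested.

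HES1 was at 147 FPKM with the mimic and 131 FPKM with the scramble in PSN-1, a ratio of 1.13 (1.07 to 1.19). In MIA PaCa-2 it was at 53.8 FPKM with the mimic and 30.0 FPKM with the scramble, a ratio of 1.79 (1.61 to 1.99). Both ratios were above 1, but the log2 change was 0.17 in PSN-1 and 0.82 in MIA PaCa-2, and the difference between the lines could not be tested with 1 library per group. HES4 was at 3.54 FPKM with the mimic and 1.04 FPKM with the scramble in PSN-1, and at 3.02 and 1.18 FPKM in MIA PaCa-2. The ratios of 3.39 (1.73 to 7.25) and 2.57 (1.33 to 5.27) rested on few fragments, about 47 and 11 in PSN-1 and about 36 and 13 in MIA PaCa-2. Both intervals lie above 1 but are wide, and HES4 is low in all 4 libraries.

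HEY1, a target that encodes a related repressor, was at 3.44 FPKM with the mimic and 2.27 FPKM with the scramble in PSN-1 (ratio 1.52, interval 1.1 to 2.11, log2 change 0.44). In MIA PaCa-2 it was at 0.0383 FPKM with the mimic and 0.0752 FPKM with the scramble, worth about 1 and 2 fragments. The ratio there was 0.51 with a counting interval of 0.0086 to 9.79, so no direction can be read at this depth.

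**Figure D3:**
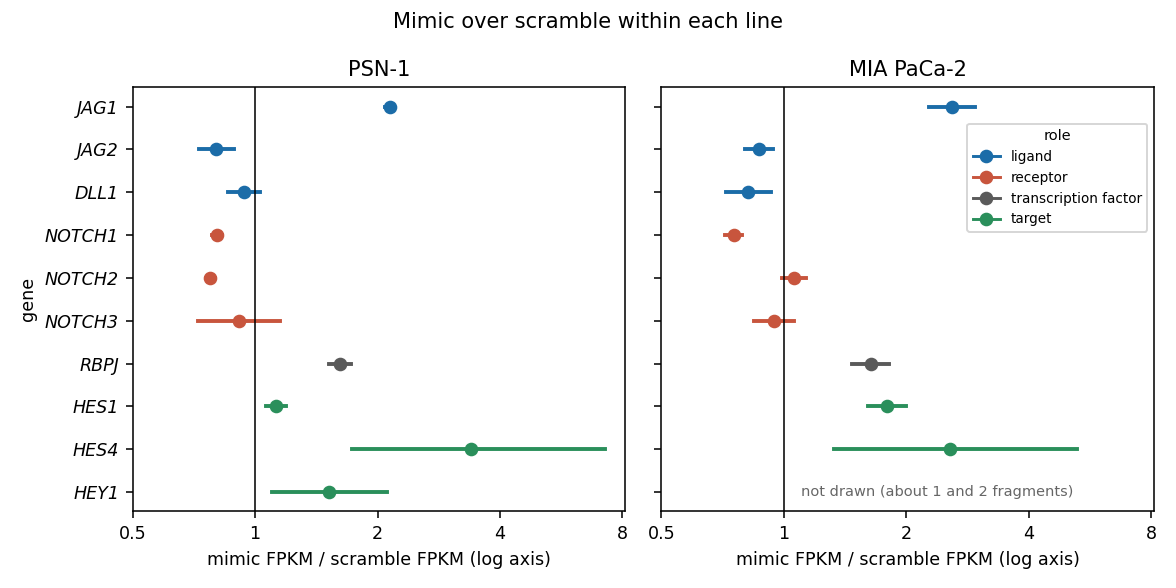
Ratio of mimic to scramble FPKM for each Notch gene, PSN-1 on the left and MIA PaCa-2 on the right, on log axes; dots are the ratios of 1 pair of libraries and bars the 95% counting intervals, with no error between cultures. JAG1, RBPJ, HES1 and HES4 lie above 1 with their whole interval in both lines, and NOTCH1 and JAG2 lie below 1 with theirs; HEY1 in MIA PaCa-2 is not drawn.

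The other members were set against all genes of at least 1 FPKM, with JAG1 left out because its rise was known when they were chosen. The whole list was chosen with earlier results of these data known, so leaving out JAG1 may not remove that selection. The shares below are therefore descriptions with no test. In PSN-1, 2 of the other 9 were higher past 1.5-fold (RBPJ and HES4), where 3.17% of 12233 genes were. In MIA PaCa-2, 3 of the other 8 that passed the filter were (RBPJ, HES1 and HES4), where 5.43% of 11484 genes were. None was lower past 1.5-fold in either line, where 3.87% of genes in PSN-1 and 4.06% in MIA PaCa-2 were, and so none was lower past 2-fold, where 0.777% and 0.81% were. RBPJ and HES4 were past 1.5-fold higher in both lines, as were 0.749% of the 10678 genes measured in both, and none was lower in both, against 0.609%. HES4 was higher past 2-fold in PSN-1, as were 0.85% of all genes, and none of the 8 was in MIA PaCa-2, where 1.31% were. None of the 8 was past 2-fold in both lines, where 0.15% of all genes were higher and 0.112% lower. The median log2 change was -0.073 over the 9 in PSN-1, against -0.016 over all genes, and 0.005 over the 8 in MIA PaCa-2, against 0.014 over all genes. By any amount, 4 of the 9 were higher and 5 lower in PSN-1, against 47.6% and 52.4% of all genes. In MIA PaCa-2, 4 of the 8 were higher and 4 lower, against 52.2% and 47.8%, so the shares in each line were near those of all genes. In both lines 3 of the 8 were higher by any amount (RBPJ, HES1 and HES4), against 28.1% of all genes, and 4 lower (JAG2, DLL1, NOTCH1 and NOTCH3), against 27.6%.

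**Figure D4:**
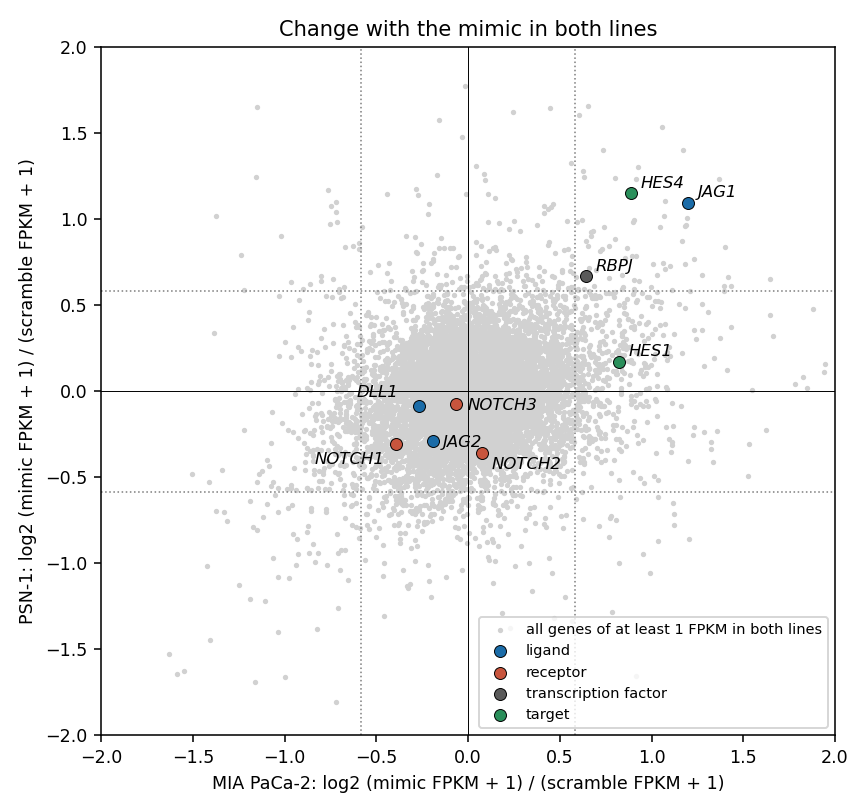
Log2 change with the mimic in MIA PaCa-2 (x axis) and PSN-1 (y axis) for the 9 Notch genes measured in both lines, coloured by role, over all genes of at least 1 FPKM in both lines (grey); dotted lines mark 1.5-fold and 39 genes past 2 in either line lie outside the axes. JAG1, HES4 and RBPJ lie in the upper right corner past 1.5-fold in both lines, HES1 to the right, and the receptor genes with JAG2 and DLL1 near or below 0.

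A mean effect of the mimic over PSN-1 and MIA PaCa-2 was estimated with limma over 10678 genes, with the line as a block. Of the 8 members in the fit other than JAG1, it called none at a Benjamini-Hochberg adjusted p under 0.05, where 0.0562% of all genes were called higher and 0.00937% lower. With unadjusted p-values under 0.05, limma had 3 of the 8 higher (RBPJ, HES1 and HES4) and 1 lower (NOTCH1), against 5.0% and 4.93% of all genes. As the 8 were also chosen with earlier results of these data known, these shares are a description. HES4 had a mean of 1.02 (SE 0.197, adjusted p = 0.219 in limma) and RBPJ of 0.66 (SE 0.139, adjusted p = 0.241). HES1 had a mean of 0.50 (adjusted p = 0.453) and NOTCH1 of -0.35 (adjusted p = 0.444). The mean log2 change of JAG1, given with no test, was 1.15. The fit has 1 residual degree of freedom, and a p above the threshold does not show that a gene was unaltered.

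Between the lines, most of the Notch genes differed by more than they did with the mimic, with HES4 an exception. Limma, fitted to the same 4 libraries with the oligonucleotide as a block, called 6 of the 9 members other than HEY1 higher in PSN-1 and 2 lower, where 29.2% and 27.3% of 12423 genes were called. JAG1 averaged 192 FPKM in PSN-1 and 7.80 FPKM in MIA PaCa-2 (log2 difference 4.48, SE 0.120, adjusted p = 7.28e-05 in limma). NOTCH2 averaged 81.9 FPKM in PSN-1 and 11.8 FPKM in MIA PaCa-2 (2.68, adjusted p = 0.000257), and NOTCH1 71.0 and 26.1 FPKM (1.42, adjusted p = 0.000677). HES1 averaged 139 FPKM in PSN-1 and 41.9 FPKM in MIA PaCa-2 (1.76, adjusted p = 0.00124), RBPJ 28.6 and 9.87 FPKM (1.44, adjusted p = 0.000961) and DLL1 22.1 and 12.2 FPKM (0.81, adjusted p = 0.00644). For each of these genes both PSN-1 libraries were above both MIA PaCa-2 libraries. JAG2, at 10.1 against 16.7 FPKM (-0.67, adjusted p = 0.0120 in limma), and NOTCH3, at 1.27 against 5.50 FPKM (-1.52, adjusted p = 0.00182), were lower in PSN-1 in both libraries.

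HEY1 passed the filter on low values through PSN-1 alone, so its difference is a description: about 174 fragments in both PSN-1 libraries and about 3 in both MIA PaCa-2 libraries gave a depth-corrected ratio of 54.8 (counting interval 18.5 to 269). HES4 averaged 2.29 FPKM in PSN-1 and 2.1 FPKM in MIA PaCa-2 (log2 difference 0.042, adjusted p = 0.864 in limma), with libraries of the lines overlapping and each mimic library above both scramble libraries. The library names of each line are consecutive and those of different lines are not, so the set of libraries and the line cannot be told apart. The 4 endothelial marker genes, from a cell type in which Notch genes are also active, summed to 7.99 (mimic) and 7.16 FPKM (scramble) in PSN-1. Of this, KDR made 6.50 and 5.43, PECAM1 1.27 and 1.58, and CDH5 0.176 and 0.101. In MIA PaCa-2 the marker genes summed to 0 and 0.0273 FPKM, with CDH5 and PECAM1 at 0. The part of these markers in the differences between lines was not tested.

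The order of levels also differed between the lines. In PSN-1 the 4 highest Notch genes were JAG1, HES1, NOTCH2 and NOTCH1 in the mimic library, and the same genes with HES1 first in the scramble library. In MIA PaCa-2 HES1, NOTCH1 and JAG2 were the 3 highest in both libraries, and JAG1 stood sixth of 10 with the mimic and eighth with the scramble. RBPJ, NOTCH2, JAG1 and DLL1 lay between 11 and 12.3 FPKM in the MIA PaCa-2 mimic library, and with no replicate their order cannot be read.

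By distance between gene-centred log2 values over the 4 libraries, the genes nearest JAG1 among 7936 of at least 5 FPKM in both lines were IGFBP4 (distance 1.16), ASPH (1.23), SLC2A3 (1.25), ATP1B1 (1.26) and TXNIP (1.37). All 5 shared its higher level in PSN-1, which dominates the measure. SLC2A3, a glucose transporter gene, was the one of them past 1.5-fold with the mimic in both lines, with log2 changes of 0.71 in PSN-1 and 0.70 in MIA PaCa-2. IGFBP4 was at 244 against 307 FPKM in PSN-1 (-0.33) and at 15.1 against 10.9 FPKM in MIA PaCa-2 (0.43).

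Of 65 other genes of the pathway, listed by role, 49 were at a mean of at least 1 FPKM in PSN-1 and 46 in MIA PaCa-2. Past 1.5-fold, 0 were higher and 2 lower in PSN-1 (MAML1 and CCND1), and 2 were higher (DLK2 and ADAM17) and 2 lower (DLL4 and EP300) in MIA PaCa-2, shares near or below those of all genes. None passed 1.5-fold in both lines, where 0.749% of all genes measured in both were higher and 0.609% lower. Their median log2 change was -0.033 in PSN-1 and 0.064 in MIA PaCa-2. Limma called none of the 45 fitted for the shared effect, while at an unadjusted p under 0.05 it had SNW1, NUMB and ADAM17 higher and CCND1 and KAT2A lower, 3 and 2 of 45, near the 5.0% and 4.93% of all genes.

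Of the protease genes that process the receptor, 7 of 9 were higher by any amount in PSN-1 and 6 of 8 in MIA PaCa-2, against 47.6% and 52.2% of all genes, with medians of 0.12 and 0.18 (log2). ADAM17, a sheddase, was at 49.9 FPKM with the mimic and 44.4 FPKM with the scramble in PSN-1, and at 23.9 and 15.2 FPKM in MIA PaCa-2. ADAM10, the main protease of the first cut, was at 46.2 and 42.6 FPKM in PSN-1 and at 32.9 and 34.9 FPKM in MIA PaCa-2. PSEN2, NCSTN and PSENEN, which encode parts of gamma-secretase, had log2 changes between 0.076 and 0.27 in PSN-1 and between 0.12 and 0.36 in MIA PaCa-2, all under 1.5-fold, while APH1A was at -0.071 and -0.036. NUMB, an adaptor that opposes Notch by removing the receptor, had log2 changes of 0.17 and 0.51 in the same order.

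Among nuclear partners, MAML1 encodes a Mastermind co-activator, as do MAML2 and MAML3. MAML1 was at 7.37 FPKM with the mimic and 11.6 FPKM with the scramble in PSN-1 (log2 change -0.59). In MIA PaCa-2 it was at 20.6 and 23.8 FPKM (-0.19). MAML2 had log2 changes of -0.325 in PSN-1 and 0.254 in MIA PaCa-2, in opposite directions. MAML3 was at 2.76 and 2.93 FPKM in PSN-1 and at most at 0.0228 FPKM in MIA PaCa-2. EP300, the acetyltransferase recruited by Mastermind, was at 33.1 FPKM with the mimic and 28.8 FPKM with the scramble in PSN-1, and at 29.1 and 46.7 FPKM in MIA PaCa-2, in opposite directions. SNW1, a co-regulator that binds the receptor's intracellular part, had log2 changes of 0.48 and 0.27.

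The other known target genes are given next. NRARP, a target that feeds back on the receptor complex, was at 3.03 FPKM with the mimic and 3.56 FPKM with the scramble in PSN-1 (ratio 0.851, interval 0.607 to 1.19) and at 2.18 and 3.61 FPKM in MIA PaCa-2 (0.604, interval 0.410 to 0.882). CCND1, which encodes cyclin D1 and responds to many pathways, was at 18.6 FPKM with the mimic and 34.6 FPKM with the scramble in PSN-1 (ratio 0.537) and at 11 and 13.7 FPKM in MIA PaCa-2 (0.804). MYC, likewise shared with other pathways, was at 512 and 543 FPKM in PSN-1 and at 872 and 609 FPKM in MIA PaCa-2. HES6 had log2 changes of -0.097 and -0.10, and HES2, HES5, HEY2 and HEYL were under 1 FPKM in all 4 libraries. Of the 5 further targets past the filter in each line, 1 was higher and 4 lower in both PSN-1 (HES7 higher) and MIA PaCa-2 (MYC higher), where 52.4% of all genes were lower in PSN-1 and 47.8% in MIA PaCa-2. The intervals included 1 for HES6 in both lines, for HES7 in both and for NRARP in PSN-1.

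Of the 65 other pathway genes, 2 had a match to the miR-4800-3p seed in the 3' UTR (3.08%). These are shown, 5' to 3' on the gene's strand (GRCh38), with the match in capitals.
APH1B site (chr15:63307191-63307197, plus strand): gacagtggcagGACGGATgggcgggtttg
HES7 site (chr17:8121036-8121042, minus strand): ttaagaaaaaaACGGATAaaaaggaaaaa
APH1B, a gamma-secretase subunit gene, was at 2.86 FPKM with the mimic and 3.67 FPKM with the scramble in PSN-1 (log2 change -0.27) and under 1 FPKM in MIA PaCa-2. HES7, a target known for its oscillation in the embryo, was at 4.66 and 3.68 FPKM in PSN-1 (0.27) and at 11.2 and 12.4 FPKM in MIA PaCa-2 (-0.14). The HES7 site is the 7-mer that ends in A, which leaves the last base of the seed unmatched. The use of either site was not measured.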

How the data were processed

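Each deposited file holds the FPKM of 1 library by gene symbol, per the file headers. A TruSeq stranded mRNA kit was used, per the labels' protocols. TopHat2 2.1.1, Cuffdiff 2.2.1 and the build hg19 are listed in the submitters' processing notes; for their roles, the annotation and the strand setting nothing is given in the sources used here, so reads of JAG1 and of an antisense gene that overlaps its exons in GENCODE may not have been separated. JAG2 exons overlap those of a processed transcript on the same strand in GENCODE, so these reads may likewise not have been separated. Libraries summed to 488575 to 510908 FPKM.

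Genes that averaged 1 FPKM or more over the libraries of a line were compared on log2(FPKM + 1). The fit for the shared effect took genes that passed in both lines. The fit between the lines took genes that averaged 1 FPKM or more over all 4 libraries, so a gene expressed in a single line could pass. Depth was estimated from the modal smallest value of genes with 1 transcript of at least 1000 bases, assuming 200-base fragments, and fragments per gene from its longest transcript. Fits were made in R 4.3.3 by limma 3.58.1 (two-sided, eBayes with a mean-variance trend). They were tried on data simulated under the model's own assumptions, so the trial cannot show that these assumptions hold here. Libraries pair through their cell line, as labelled. The error behind a p-value joins the gene's own spread over these libraries with a variance trend over all genes. It does not measure the spread between replicate cultures. Other steps ran in Python 3.11.15 with pandas 2.3.3, numpy 2.4.6, matplotlib 3.10.9 and scipy 1.17.1. All 10 members are named, other pathway genes where past 1.5-fold or representing a role, some after their values were seen, and the 5 genes nearest JAG1. The members and lists were chosen with earlier results of these data known. Some values of the pathway list are not reported here.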

Additional observations from a re-analysis of the deposited data

Results flagged for a closer look

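Considered here are the 10 members and the 6 other pathway genes past 1.5-fold in a line, where they passed the filter in both lines. With 1 pair of libraries in each line, 3 of these moved in opposite directions in PSN-1 and MIA PaCa-2. For none of the 3 was the difference tested. The log2 change of NOTCH2 was -0.36 in PSN-1 and 0.076 in MIA PaCa-2, a difference of -0.44, and reads of NOTCH2 can be shared with NOTCH2NL. That of EP300 was 0.19 in PSN-1 and -0.66 in MIA PaCa-2, a difference of 0.86. That of DLL4 was 0.066 in PSN-1 and -0.61 in MIA PaCa-2, a difference of 0.68, at levels of at most 2.83 FPKM.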

How the results depend on the processing

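The counts of Notch genes past 1.5-fold, 3 in PSN-1 and 4 in MIA PaCa-2, include JAG1, whose rise was known beforehand. Without JAG1 they are 2 of 9 and 3 of 8, where 3.17% and 5.43% of all genes were higher. The other members were also chosen with earlier results of these data known. The counts with JAG1 held with a pseudocount of 0.1, no filter, median-ratio scaling and TPM scaling. A filter at 5 FPKM, which removes HES4, left 2 and 3, again with JAG1. Between the lines 9 of the 10 Notch genes were called, against 29.2% of all genes called higher and 27.3% lower. HEY1 is among the 9 although it passes the filter through PSN-1 alone. The 9 held under these settings, without the trend, without short non-coding genes and without a replicate block for the oligonucleotide. The filter at 5 FPKM left 7 of 7, where 28% of all genes were called higher and 28.4% lower. The count called for the shared effect was 0 and became 1 with TPM scaling and with short non-coding genes left out; the added gene is JAG1, whose rise was known when the genes were chosen, so it supports nothing; TPM scaling also raises all values against the same pseudocount. Without the replicate block for the line the fit called 0 Notch genes, as with it; the groups carry no replicate numbers, and the pairing is by line. No replicate could be left out, as each group has 1 library. None of the alternatives run turned the direction of a Notch gene within a line or in the fits. At about 12.8 to 15.7 fragments per kb at 1 FPKM, HES4 and HEY1 are limited by depth.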
